A study of Drosophila melanogaster with 2 samples.

Results

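The 10 genes described here belong to the Jun N-terminal kinase (JNK) pathway and to the cell death machinery of Drosophila melanogaster. They were chosen by name: hep, bsk, puc and egr for the kinase pathway, and rpr, hid, grim, skl, Dronc and Diap1 for cell death. They are 10 of the 13968 protein-coding genes that the annotation places on the chromosome arms. For each gene, all peak summits inside the gene or within 5 kb of it were taken, from 4 peak lists.

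The series is a chromatin immunoprecipitation and sequencing (ChIP-seq) experiment on Irbp18, also named CG6272, a basic leucine zipper protein of the C/EBP type. Whole embryos, 0 to 24 h old, supplied the chromatin. They carried a transgene for CG6272 fused to eGFP, and an antibody against GFP precipitated the fusion protein. There was 1 group with 2 biological replicates, so there is no contrast between conditions, and no control library was analysed here. The measurement therefore shows where the tagged protein was recovered, averaged over all embryonic tissues and stages of that day, with untagged Irbp18 not measured.

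In flies, JNK signalling can start with the ligand Eiger, a tumour necrosis factor encoded by egr, whose receptors are Grindelwald and Wengen. A kinase chain then ends with Hemipterous (hep), which activates Basket (bsk), the JNK itself. Basket acts on AP-1 proteins, and one of their targets is the phosphatase gene puc, whose product switches Basket off again. The death genes hid, rpr, grim and skl encode antagonists of Diap1, an inhibitor of apoptosis protein that holds the initiator caspase Dronc in check. Irbp18 is known in flies as a partner of Xrp1 and of Crc, the fly ATF4, proteins studied in cell competition and in stress responses.

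The authors deposited a conservative list and a second list from both replicates pooled, here called the other pooled list, and a list for each replicate. Since the pooled lists use the reads of both replicates, the 4 lists are not independent. Each ranked list holds candidate peaks, and the thresholded list holds a subset with an irreproducible discovery rate (IDR) of at most 0.01. In the conservative analysis 3454 of the 3499 ranked peaks within that limit were in the thresholded list, and none of the others lay in the window of a member. A site is called here when it is in the thresholded list. On the arms, 3426 sites were called in the conservative list, 3568 in the other pooled list, 2748 for replicate 1 and 2003 for replicate 2. The signal value gives the strength of a peak as the authors scored it. Its scaling is not stated in the sources, and it is compared only within a list. Read depth is unknown, because the lists hold no counts.

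Of the 10 genes, 5 had a called conservative site in the gene or within 5 kb: egr, hep, puc, hid and Diap1. Among all protein-coding genes 41.8% had one. The other pooled list called sites at 5 members, against 43.1% of all genes. Replicate 1 called sites at 5 members, against 38.0% of all genes, and replicate 2 at 4 members, against 29.6% of all genes. Called conservative sites lay within 500 bp of a start at 3 members, hep, hid and Diap1, while 16.8% of all genes had one there. The other pooled list had them at 2 members, against 18.0% of all genes. Replicate 1 had them at 1 member, against 15.4% of all genes, and replicate 2 at 1 member, against 11.0%. With 10 members, these counts are descriptions, and no test was made on them. The other 5 members, bsk, rpr, grim, skl and Dronc, had no called site in any of the 4 lists.

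The windows searched differed in length. The 5 members whose window was 15 kb or longer were the 5 with a called conservative site, and 53.0% of all genes with such windows had one. None of the 5 members with shorter windows had one, against 38.0% of all genes with shorter windows. The 15 kb division was chosen after the values were seen, and the part of window length in the difference between members was not tested. The member windows held 116 conservative candidates, of which 14, or 12.1%, were called, against 2.64% of all candidates on the arms. The share on the arms also counts candidates outside gene windows, so it is not a matched baseline for the member windows. Densities over the windows of all genes give the closer comparison. The member windows held 0.804 called sites per 10 kb of window, against 0.395 over the windows of all genes, and 0.666 candidates per kb, against 1.04 over all genes. Of the 14 called sites, 7 were in the window of puc, at 2.60 per 10 kb. Diap1 had 1.33 per 10 kb, hep 0.942, egr 0.631 and hid 0.358, and the other 5 members had none.

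**Figure D1:**
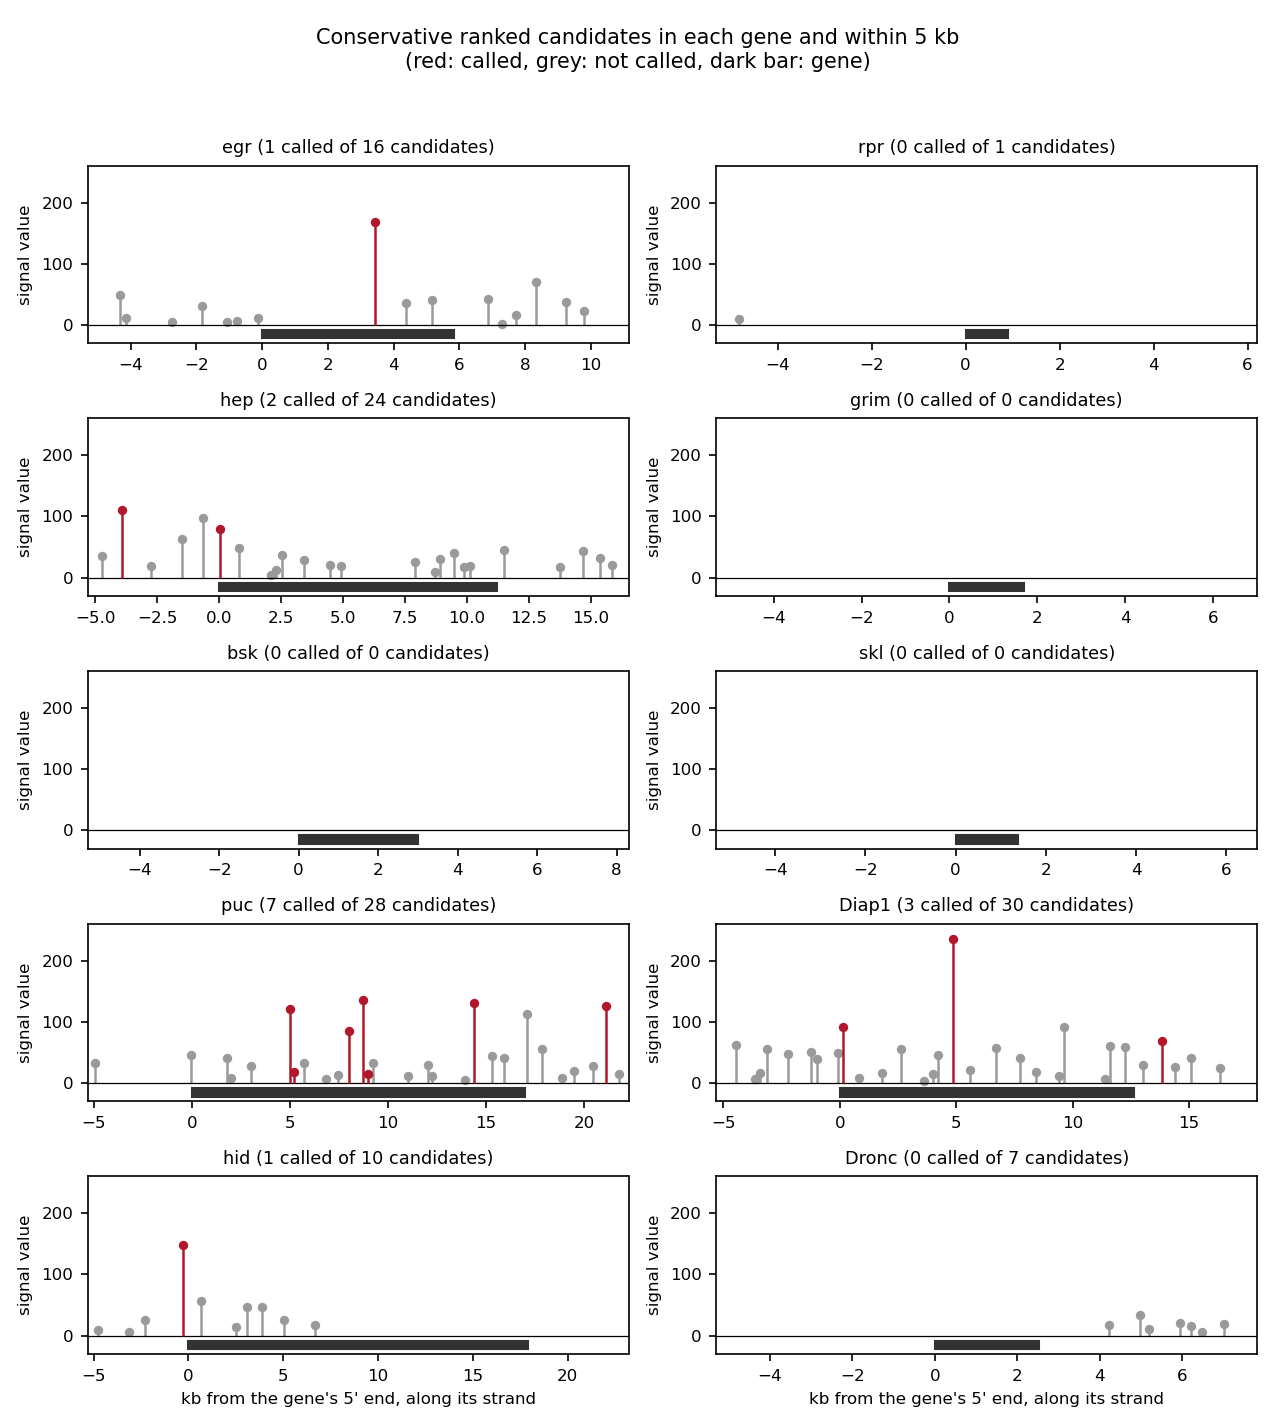
Signal value of each conservative candidate (vertical axis) against its distance in kb from the gene's 5′ end along its strand (horizontal axis), with 1 panel for each of the 10 genes. Red marks called sites, grey marks candidates that were not called, and the dark bar is the gene. puc had 7 called sites and Diap1 had 3, while the panels of bsk, grim and skl are empty.

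The sequences under the summits that the results turn on are given first. Puc sites 4, 6 and 8, hid site 1 and Diap1 site 4 are 5 of the 6 places called in all 4 lists, and the sequence of the other, egr site 1, is not shown here. Hep site 1 and puc site 5 are shown in short because their windows held a motif. Windows of 101 bases centre on the conservative summit and shorter pieces hold the motif. All come from the RefSeq copy of the release 6 reference genome, whose coordinates are those of dm6, on the plus strand. Capitals mark a motif of the CARE type (TGATGCAA or TGATGTAA, a C/EBP and ATF composite word) or an AP-1 word (TGACTCA or TGAGTCA). Sites are numbered along the chromosome within each gene's window. Puc site 4 is chr3R:8114020-8114120, puc site 6 is chr3R:8119649-8119749 and puc site 8 is chr3R:8126385-8126485. Hid site 1 is chr3L:18185856-18185956, Diap1 site 4 is chr3L:16046113-16046213, hep site 1 is chrX:13090395-13090424 and puc site 5 is chr3R:8114285-8114314.
puc site 4: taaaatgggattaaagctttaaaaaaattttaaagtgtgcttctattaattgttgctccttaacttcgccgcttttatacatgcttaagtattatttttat
puc site 6: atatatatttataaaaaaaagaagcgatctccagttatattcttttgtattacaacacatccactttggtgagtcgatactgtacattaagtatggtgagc
puc site 8: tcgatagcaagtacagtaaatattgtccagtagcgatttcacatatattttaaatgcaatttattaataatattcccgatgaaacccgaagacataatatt
hid site 1: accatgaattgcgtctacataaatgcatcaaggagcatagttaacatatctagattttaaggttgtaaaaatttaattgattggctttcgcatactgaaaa
Diap1 site 4: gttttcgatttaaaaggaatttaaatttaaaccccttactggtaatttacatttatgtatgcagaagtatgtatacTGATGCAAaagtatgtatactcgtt
hep site 1: gtgtacaatagTGATGTAAaaaaacatcga
puc site 5: tactgagtgcaTGAGTCAtgatttcgcttc

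Motifs were searched on both strands of the 101 bases centred on each of the 14 called conservative summits of members, and on each of the 3426 called summits on the arms. The CARE words were in 2 member windows, hep site 1 and Diap1 site 4, with their centres 21 and 30 bp from the summit, and in 20 of all windows (0.584%). An AP-1 word was in 1 member window, puc site 5, 12 bp from the summit, and in 0.934% of all windows. Puc site 5 had a signal value of only 14.24, and neither replicate held a candidate within 100 bp of it. Both puc site 5 and hep site 1 were called in the conservative list only. The DRE core TATCGATA, the element bound by DREF in fly promoters, was in the window of hep site 3, and in 3.47% of all windows. The C/EBP palindrome TTGCGCAA, the PAR word TTACGTAA, the CRE palindrome TGACGTCA, the repeat GAGAGAG and the promoter word GGTCACAC were in none of the 14 member windows. Over all windows their shares were 0.175%, 0.175%, 0.117%, 0.817% and 1.02%, in that order. The CARE word of Diap1 site 4 lies between 2 copies of the run agtatgtatac. GC content of the 14 member windows ran from 25.7% to 63.4%, with a median of 33.2%, against a median of 36.6% over all called windows.

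For egr, the ligand gene (FBgn0033483, chr2R:10078366-10084210, plus strand), 1 of 16 conservative candidates was called, and this site was called in all 4 lists. It lay at chr2R:10081627-10081982 in an intron of egr, 3439 bp downstream of the start. Its signal value was 168.4 in the conservative list, at rank 1052 and an IDR of 0.000229. Within their own lists it had 87.65 in replicate 1, at an IDR of 0.000671, and 92.78 in replicate 2, at an IDR of 0.000134. In all 3 of these lists the value was above the median of the called sites, which was 121.2, 83.48 and 75.23. The nearest annotated start was that of a small nucleolar RNA, snoRNA:Or-ACA6, 480 bp away, and the nearest coding start was that of CG2269, 3364 bp away. At the start of egr the conservative list held 1 candidate, 128 bp upstream, with a signal value of 12.20 and an IDR of 0.843. Just outside the threshold was a candidate at chr2R:10086518-10086873 in coding exons of CG2269 and sut4, with a signal value of 69.71 and an IDR of 0.0356.

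For hep, the kinase that activates JNK (FBgn0010303, chrX:13079205-13090434, minus strand), 2 of 24 conservative candidates were called. Hep site 1 lay at chrX:13090211-13090566 in the 5′ UTR, 45 bp downstream of the start. Its conservative signal value was 79.13, at rank 3254 and an IDR of 0.00413. It was called in the conservative list only: the IDR was 0.0114 in the other pooled list, 0.0212 in replicate 1 and 0.21 in replicate 2. Hep site 3 lay at chrX:13094169-13094524, 3913 bp upstream of hep and 48 bp downstream of the start of the neighbouring gene CG2200. It had a signal value of 110.4 and an IDR of 0.00171 and was called in both pooled lists and in replicate 1. In replicate 2 its IDR was 0.0118, just outside the limit.

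A further place, hep site 2, stood between these at chrX:13090913-13091268. It was 657 bp upstream of hep and 54 bp upstream of the start of lic, which encodes the kinase that activates p38. The conservative list gave it a higher signal value than hep site 1, 97.99, but an IDR of 0.598, so it was not called there. The other pooled list called it with an IDR of 0.00265, replicate 1 with 0.00261, and replicate 2 did not, with an IDR of 0.81. None of the 3 places at hep was called in replicate 2.

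For bsk, the JNK itself (FBgn0000229, chr2L:10247502-10250501, minus strand), no list held any candidate in the gene or within 5 kb. The gene lay in a stretch of 93.90 kb between neighbouring conservative summits, 33.94 kb from one and 56.95 kb from the other. In replicate 1 the stretch was 93.27 kb and in replicate 2 it was 91.51 kb. On arm 2L, 6 stretches between conservative summits were at least as long, the one at bsk included. Over all protein-coding genes, 506 (3.62%) had no candidate within 5 kb in any of the 4 lists. Candidates include peaks far below the limit, and 93.7% of all genes had at least 1 in the conservative list. The sources do not state whether regions were masked ahead of peak calling, so no binding and no measurement cannot be told apart at bsk.

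For puc, the phosphatase and feedback inhibitor (FBgn0243512, chr3R:8105332-8122294, plus strand), 7 of 28 conservative candidates were called, the highest count of the 10 genes. Of these, 6 lay inside the gene. At least 7 called sites were found at 15 of all 13968 genes (0.107%), and at least 6 inside the gene at 14 genes (0.100%). The window of puc was 26.96 kb long, against a median of 12.16 kb over all genes, and these shares were not matched for length. In the puc window replicate 1 called 5 sites and replicate 2 called 3, and 3 conservative sites had called summits within 100 bp in both replicates. Puc sites 2 and 5 overlapped stronger called peaks next to them and had signal values of only 17.32 and 14.24. Without such weaker overlapping peaks, a rule chosen after the values were seen, puc had 5 called sites, and 51 genes (0.365%) had as many.

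None of the called sites was at a start of puc. The only conservative candidate there was 58 bp upstream, with a signal value of 45.29 and an IDR of 0.712, and in replicate 1 the candidate there had an IDR of 0.0670. Puc site 1 (chr3R:8110169-8110524), in an intron 3859 bp downstream of the nearest start of puc, had a conservative signal value of 121.0 and an IDR of 0.00161. Replicate 1 called it with an IDR of 0.00459 and replicate 2 did not, with an IDR of 0.0159. Puc site 3 (chr3R:8113156-8113511) lay in an exon of lncRNA:CR44331, a non-coding gene on the opposite strand inside a puc intron. It had a signal value of 84.44 and was called in the pooled lists but in neither replicate.

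Puc site 4 (chr3R:8113892-8114247) was 67 bp upstream of the start of lncRNA:CR44331 and 7582 bp downstream of a start of puc. Its signal value was 136.2 in the conservative list, at an IDR of 0.000698, 70.22 in replicate 1 and 65.64 in replicate 2, and all 4 lists called it. Puc site 6 (chr3R:8119521-8119876), in an intron 13211 bp downstream of a start of puc, had 131.1 in the conservative list, 65.24 in replicate 1 and 66.49 in replicate 2, and was also called in all 4. Puc sites 4 and 6 stood above the conservative median of 121.2 and below both replicate medians. The annotated start nearest to puc site 6 was that of CG7878, 3026 bp away.

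The 2 other places at puc were next to neighbouring genes, beyond its 3′ end. Puc site 7 (chr3R:8122216-8122571) was 331 bp upstream of CG7878, with a conservative signal value of 112.6 and an IDR of 0.0309. It was called in the other pooled list and in replicate 1, where its IDR was 0.000325, and not in replicate 2, where its IDR was 0.591. Puc site 8 (chr3R:8126257-8126612) was 78 bp upstream of CG9667, with a conservative signal value of 125.2, 82.27 in replicate 1 and 48.74 in replicate 2, and was called in all 4 lists. Its distance to CG9667 was far shorter than that to any start of puc.

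**Figure D2:**
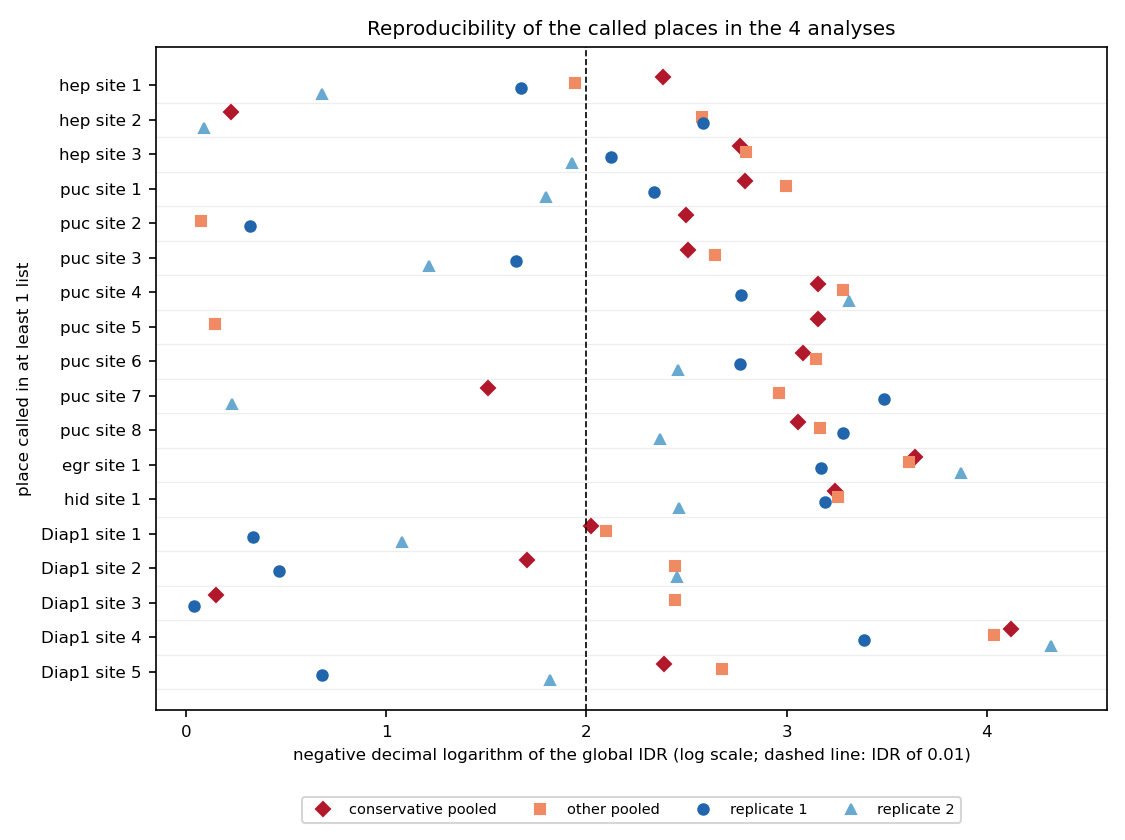
Negative decimal logarithm of the global IDR (horizontal axis, a log scale) for each of the 18 places called in at least 1 list (vertical axis), with a red diamond for the conservative list, an orange square for the other pooled list, a dark circle for replicate 1 and a light triangle for replicate 2. The dashed line is the IDR of 0.01, points to its right passed it, and a list with no candidate at a place has no point. For 6 places all 4 points lie to the right, and for 7 places neither replicate does.

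Among the antagonists of Diap1, hid was the only one with a called site (FBgn0003997, chr3L:18167745-18185641, minus strand), 1 of 10 conservative candidates. Hid site 1 lay at chr3L:18185728-18186083, in intergenic sequence 265 bp upstream of the hid start. Its signal value was 148.4 in the conservative list, at rank 1281 and an IDR of 0.000572. It had 89.36 in replicate 1, at an IDR of 0.000640, and 54.69 in replicate 2, at an IDR of 0.00345, and all 4 lists called it. Of the 10 genes, hid was the only one with a called site within 500 bp of its start in each of the 4 lists. The next candidate, in the coding exon 677 bp downstream of the start, had a conservative signal value of 56.42 and an IDR of 0.0352.

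The 3 other antagonist genes had few or no candidates in the pooled lists. For rpr (FBgn0011706, chr3L:18397535-18398435, minus strand) the only conservative candidate was 4826 bp upstream, with a signal value of 9.12 and an IDR of 0.843. The best candidate of rpr had an IDR of 0.374 in replicate 1 and 0.793 in replicate 2. For grim (FBgn0015946, chr3L:18302719-18304417, minus strand) only replicate 2 held candidates, 6 in all. The best of them, 694 bp from the start of CG13700, had a signal value of 34.20 and an IDR of 0.0185. The stretch around grim without conservative summits was 70.48 kb, and 12 stretches on arm 3L were at least as long. In replicate 2 the stretch was 20.47 kb, and 111 were at least as long. For skl (FBgn0036786, chr3L:18438561-18439942, minus strand) only replicate 2 held candidates, 9 in all, with a best signal value of 24.05 and an IDR of 0.858. One of these was 86 bp downstream of the skl start, with a signal value of 20.07 and an IDR of 0.761.

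The 4 antagonist genes lie in 1 stretch of arm 3L, and the span from hid to skl (chr3L:18167745-18439942) is 272.2 kb long. It held 62 conservative candidates, 0.228 per kb against 0.877 per kb over arm 3L, and 5 called sites, 1.84 per 100 kb against 2.41 per 100 kb over the arm. In replicate 2 it held 146 candidates, 0.536 per kb against 0.799 per kb over the arm. Called sites per 100 kb were 1.10 in the span against 1.94 over the arm in replicate 1, and 1.47 against 1.41 in replicate 2. The other pooled list had 2.57 per 100 kb in the span against 2.52 over the arm. The span thus had fewer candidates per kb than the arm in every list, while called sites per 100 kb were fewer in the conservative and replicate 1 lists and slightly more in the other 2.

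All 5 called conservative sites of the span lay toward hid, within 77.81 kb of its 3′ end. The strongest was at chr3L:18212322-18212437, 10901 bp downstream of the start of CG7320, with a signal value of 246.2 in the conservative list, 146.8 in replicate 1 and 92.49 in replicate 2. The next was at chr3L:18235961-18236088, 1290 bp upstream of lncRNA:CR45937, with 181.0 in the conservative list, 103.8 in replicate 1 and 86.00 in replicate 2. Both stood above hid site 1 in each of these 3 lists. The 2 others, at chr3L:18192855-18193210 and chr3L:18245381-18245736, had conservative signal values of 82.13 and 75.57 and were called in both pooled lists but in neither replicate. A site at chr3L:18238590-18238945 was called in the other pooled list, with 77.56, and in replicate 2, with 52.96, but not in the conservative list or replicate 1. Toward grim, the other pooled list alone called a site at chr3L:18348714-18349069, 44475 bp upstream of grim, with a signal value of 86.41. Which gene any of these sites acts on was not measured.

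**Figure D3:**
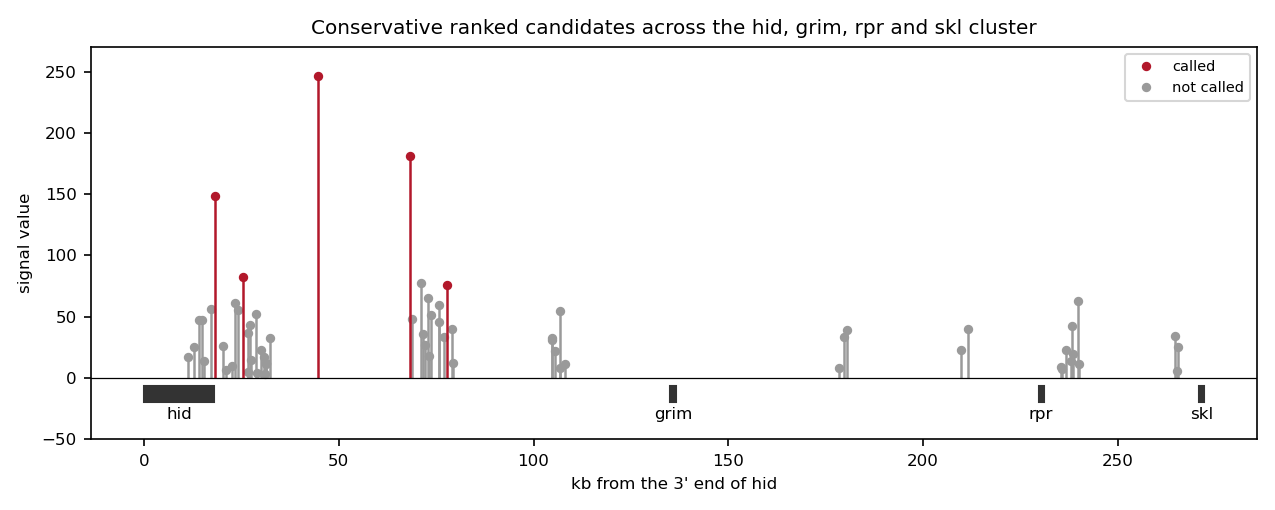
Signal value of each conservative candidate (vertical axis) against distance in kb from the 3′ end of hid (horizontal axis), over the 272.2 kb from hid to skl. Red marks the 5 called sites and grey the candidates that were not called; dark bars are the 4 genes. All 5 called sites lie within 77.81 kb of the 3′ end of hid, and grim, rpr and skl have none near them.

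For Diap1, the inhibitor that the 4 antagonists bind (FBgn0260635, chr3L:16038410-16051034, minus strand, with 5 annotated starts), 3 of 30 conservative candidates were called. Diap1 site 4 (chr3L:16046086-16046261), in an intron 683 bp downstream of one of the starts, had the highest signal value of all member sites, 235.2, at rank 637 and an IDR of 7.6e-05. It had 125.4 in replicate 1, at an IDR of 0.000411, and 108.1 in replicate 2, at an IDR of 4.8e-05, and all 4 lists called it. In each of the 3 lists it was above the median called signal value. This is the window with the CARE word TGATGCAA.

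Diap1 site 5 (chr3L:16050721-16051076) lay in the 5′ UTR, 135 bp downstream of the most upstream start. It had a signal value of 92.32 and was called in the pooled lists with an IDR of 0.00408 in the conservative one. In the replicates its IDR was 0.209 and 0.0152, and neither called it. Diap1 site 1 (chr3L:16037020-16037375), in the 3′ UTR of the neighbour CG5895, had a signal value of 68.28 and an IDR of 0.00951, close to the limit, and neither replicate called it. Diap1 site 2 (chr3L:16041238-16041593), in an intron, was called in the other pooled list and in replicate 2, with an IDR of 0.00352 there. It was not called in the conservative list, with an IDR of 0.0199, nor in replicate 1, with an IDR of 0.343.

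For Dronc, the initiator caspase (FBgn0026404, chr3L:9968479-9971002, plus strand), none of 7 conservative candidates was called. The best had a signal value of 33.41 and an IDR of 0.459, 713 bp from the start of CG42455 and 4990 bp downstream of the Dronc start. In replicate 2 the best candidate lay in a Dronc coding exon, with a signal value of 33.30 and an IDR of 0.241. The stretch around Dronc without conservative summits was 22.80 kb, and 130 stretches on arm 3L were at least as long.

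Across the 10 genes, 18 places were called in at least 1 list. Of these, 6 were called in all 4 lists: puc sites 4, 6 and 8, egr site 1, hid site 1 and Diap1 site 4. A further 2 were called in 3 lists, 6 in 2 lists and 4 in 1 list, and 7 were called in neither replicate. Of the 14 called conservative sites, 6 had a called summit within 100 bp in both replicates, against 1617 of all 3426 (47.2%). Introns held 7 of the 14, 5′ UTRs 3, intergenic sequence 2, an exon of a non-coding gene 1 and a 3′ UTR 1. For 9 of the 14 the nearest coding start was the member's own and for 5 it was another gene's. Their signal values ran from 14.24 to 235.2 with a median of 115.7, against a median of 121.2 over all called sites, and 6 were above 121.2.

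The strongest candidate in the window ordered the 7 members that had one in the conservative list. Diap1 came first with 235.2, above 87.4% of all genes, then egr with 168.4, above 81.1%, hid with 148.4, above 77.8%, puc with 136.2, above 75.5%, and hep with 110.4, above 69.4%. Dronc, with 33.41, was above 9.06% of all genes, and rpr, with 9.12, above 6.33%. The median over the 13088 genes with a candidate was 70.90. The 5 members with a called site were all above the median and the other 2 below the lower quartile of 52.60. Called sites on the arms had a median of 121.2, so this split follows in part from the calling and is not a separate result. In replicate 1, hid had 89.36 and egr 87.65, and puc had 92.84 at puc site 7, so the order of puc, egr and hid differed between lists.

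**Figure D4:**
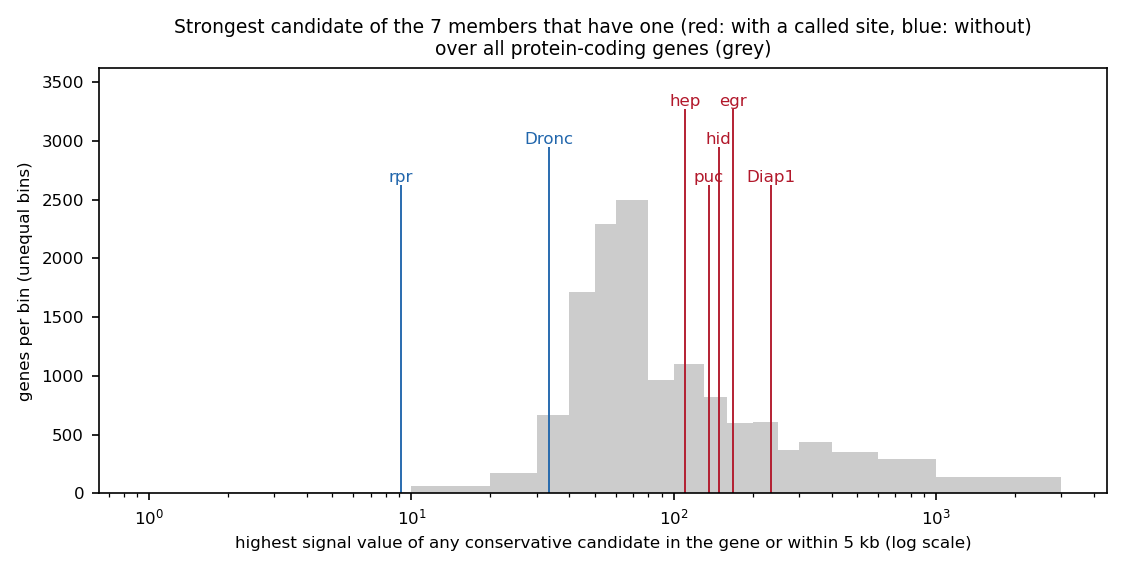
Number of protein-coding genes (vertical axis, grey, in bins of unequal width) by the highest conservative signal value in the gene or within 5 kb (horizontal axis, log scale). Lines mark the 7 members that have a candidate, red with a called site and blue without. The 5 red lines stand between 110.4 and 235.2, above the median of 70.90 over the 13088 genes with a candidate, and rpr and Dronc stand at 9.12 and 33.41. Called sites mostly have high signal values, so the split by colour is not a separate result.

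Of 91 further genes of the pathways that were found in the annotation, 60 (65.9%) had a called conservative site within 5 kb, against 41.8% of all genes, and 24 (26.4%) had one within 500 bp of a start, against 16.8% of all genes. These lists were written with earlier results of these data known, so the shares are descriptions. Windows of neighbouring genes overlap, so 1 site can count for more than 1 gene, in these lists and among all genes. The 2 called conservative sites in the window of lic, for example, are hep sites 1 and 3. Of 9 genes listed with the JNK receptors and adaptors, 3 had a called site at a start. They were POSH, a scaffold of the kinase chain, with 293.2, Traf6 with 154.8, and msn, a kinase upstream of the chain, with 81.92. Of the other mitogen-activated kinases and phosphatases, 5 of 10 had one at a start, led by Mkk4, the second kinase that activates Basket, with 729.7, then p38a with 430.3 and p38b with 169.4. Of 8 genes listed for JNK transcription, not all of them transcription factors, 1 had a called site at a start: Atf3, a leucine zipper protein, with 660.3. Of 16 target genes 3 had one at a start: Duox, an oxidase, with 174.0, rgn with 113.0 and wg, a Wnt ligand, with 93.71. Of the genes named from these lists, rgn had no called site at a start in replicate 1, and msn and wg had none in replicate 2. The others were called at a start in both replicates.

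On the cell death side, 2 of 10 apoptosome and caspase genes had a called site at a start, Cyt-c-d with 526.0 and eIF3m with 101.8, while 8 of 10 had one within 5 kb. Of 12 further genes listed as regulators of inhibitors of apoptosis or as Bcl-2 family members, 1 had one at a start, Cul3, a ubiquitin ligase subunit, with 99.43. Of 8 genes of the DNA damage response 4 had one at a start, among them mei-41, the fly ATR kinase, with 474.6, Irbp18 itself with 354.8 and tefu, the fly ATM kinase, with 171.0. Irbp18 is also the gene carried in the tagged transgene, and no control library was analysed here. Of 18 cell competition genes 5 had a called site at a start. They were led by dlg1 with 171.0, yki, the Hippo pathway coactivator, with 167.7 and RpS12, a ribosomal protein gene, with 167.4. Of the genes named from these lists, eIF3m and tefu had no called site at a start in replicate 2. The others were called at a start in both replicates. Within 5 kb, called sites were found at 6 of 9 genes listed with receptors and adaptors and at 8 of 10 kinases and phosphatases. They were also found at 6 of 8 genes listed for JNK transcription and at 9 of 16 targets. They were found at 6 of 12 regulators, 6 of 8 damage genes and 11 of 18 competition genes. Each of these 8 lists had a higher share within 5 kb than all genes. At starts the JNK transcription list and the list of such regulators had lower shares. Window length was not held fixed between the lists and all genes, and its part was not tested.

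**Figure D5:**
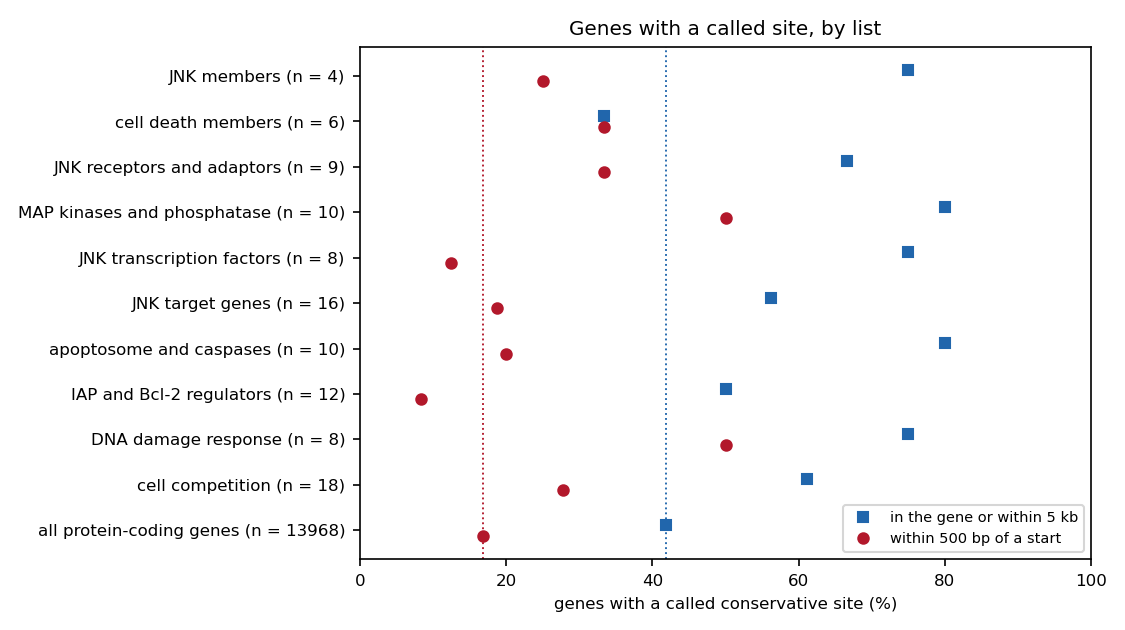
Percent of genes with a called conservative site (horizontal axis) for the members, the 8 further lists and all 13968 protein-coding genes (vertical axis, with the number of genes). Squares count sites in the gene or within 5 kb and circles count sites within 500 bp of a start. Dotted lines mark the 41.8% and 16.8% of all genes, and every one of the 8 further lists has its square to the right of 41.8%. The row for JNK transcription factors also holds genes that are not such factors.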

How the data were processed

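Chromatin immunoprecipitation with an antibody against GFP was measured in 2 biological replicates of 1 group. The authors deposited ranked and thresholded IDR peak lists on dm6 for each replicate and for 2 pooled analyses. Neither the aligner nor the peak caller is given in the sources used here. The signal value deposited by the authors is given for each peak, and how it was computed is not stated. The score deposited by the authors equals 125 times the −log2 of the list's IDR, with 1000 as its ceiling. The ranked lists deposited by the authors give that IDR as −log10. The depth of the libraries is unknown.

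The summit of each peak was placed on Ensembl annotation BDGP6.54, release 115. All candidates with their summit in a member or within 5 kb were kept, and a start site counted within 500 bp. Tables were made with Python 3.11.15, numpy 2.4.6 and pandas 2.3.3, and placement was tested on simulated peaks. Members, gene lists, motifs and alternatives were chosen with earlier results of these data known. The text names all 10 members, and in each further list at most the 3 genes with the highest signal value at a start. Fos28F was listed and not found. The gene eIF3m was listed as Tango7. With 1 group there was no test.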

Additional observations from a re-analysis of the deposited data

How the results depend on the processing

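The count of members with a called site within 5 kb was 5 in the conservative list and 4 or 5 under every alternative tried, while the share of all genes moved from 41.8% to between 24.2% (both replicates within 50 bp) and 55.2% (windows of 10 kb). The 5 of 10 members were below the share of all genes with windows of 10 kb and with an IDR limit of 0.05, which gave 53.8%, and above it in the conservative list. The count with a called site within 500 bp of a start was 3 and fell to 1 with either replicate list alone, to 1 with top scores only, and to 1 where both replicates had to call a summit within 100 bp or within 50 bp. The share of all genes, 16.8% in the conservative list, was 15.4% and 11.0% with replicate 1 and replicate 2 alone, 14.1% with top scores, and 9.61% and 8.86% with both replicates, so that 1 of 10 was near it. The other pooled list gave 2 members, against 18.0% of all genes. A start distance of 200 bp gave 2, against 12.4%, and a distance of 1000 bp gave 3, against 19.2%. The 14 sites became 7 to 10 with a single replicate's list, 6 with both replicates within 100 bp and 5 with both within 50 bp. An IDR limit of 0.05 gave 19 sites, windows of 2 kb gave 12 and windows of 10 kb gave 16. Leaving out weaker overlapping peaks, a choice made after seeing the data, gave 12. For the 5 members with a called site, 25 of 40 values for single members stayed within 1.5 times, and the other 5 members had no called site under any of these alternatives. The alternatives differ in the lists and limits they use, and the read depth behind them is unknown. No paired analysis was possible because there is 1 group.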

Other observations

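In the conservative list 178 of 3426 called sites (5.20%) overlapped a stronger called peak, with a median signal value of 12.29 against 121.2 over all called sites. Puc sites 2 and 5 were 2 of them. Puc site 2 had a signal value of 17.32 at rank 85518 of the conservative list and an IDR of 0.0032, and the other pooled list gave it an IDR of 0.845. Puc site 5 had 14.24 at rank 96053 and an IDR of 0.000697, next to 0.000698 for puc site 4, and the other pooled list gave it 0.72. Diap1 site 3 showed the opposite order, with an IDR of 0.706 in the conservative list and 0.00362 in the other pooled list, next to 0.00361 for Diap1 site 2. Why a weak peak shares the IDR of its stronger neighbour in 1 pooled list and not in the other was not tested.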
